A study of Bos taurus with 8 samples.

Results

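Integrins are cell surface receptors made of an alpha and a beta chain, through which a cell holds on to its matrix and passes signals inward. In skeletal muscle, the chain encoded by *ITGA7* pairs with that of *ITGB1* to bind laminin around the fiber, whereas *ITGA2*, *ITGA5*, and *ITGAV* encode chains of collagen, fibronectin, and vitronectin receptors that fibroblasts and many other cells carry. A list of 10 chains was examined (*ITGA2*, *ITGA3*, *ITGA4*, *ITGA5*, *ITGA6*, *ITGA7*, *ITGAV*, *ITGB1*, *ITGB3*, and *ITGB5*), and a member was any probe whose RefSeq accession carried one of these symbols. Probes were matched for 6 of the 10 chains, 1 probe each, among 21475 probes in all, of which 8297 had a symbol. The 6 were alpha chains, and *ITGA3*, *ITGB1*, *ITGB3*, and *ITGB5* were not analysed here, so that 0 of the 3 beta chains on the list could be described.

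RNA came from primary cultures of semitendinosus muscle cells of untreated 15-month-old bulls, taken at 80% confluence while the cells were dividing. The beef breeds were Limousin (LIM) and Hereford (HER), and the dairy breed Holstein Friesian (HF) was the control. Each of 8 two-colour arrays carried a beef culture beside an HF culture, 4 arrays for LIM (LIM in Cy5, HF in Cy3) and 4 for HER (HER in Cy3, HF in Cy5), and the labels call the 4 arrays of a comparison biological replicates. Cultures were enriched for muscle cells by preplating, a step in which fast-adhering cells are left behind, and other cells remained. Values are log2 ratios of the beef breed over HF, so that 1 is a doubling, and the labels do not give which HF bull was on which array. Breed, dye, and slide cannot be told apart within a comparison, whereas in the mean of both comparisons (the beef effect) a dye effect cancels. Both comparisons were made against HF cultures, and there were fewer HF bulls than HF channels, so HF bulls recurred between arrays. The values of LIM and HER are therefore given side by side, and their likeness is not independent replication. The main fit treated the 8 arrays as independent, so standard errors and p-values of the beef effect may be too small.

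In LIM channels, 80.9% to 85.2% of the probes were well above background, against 74% to 78% in HF on the same arrays. In HER channels it was 68.8% to 75%, against 73.9% to 77.3% in HF. Every LIM channel thus had a higher share than any other channel, and breed and dye cannot be told apart here. Arrays of the same comparison correlated with r of 0.33 to 0.78 over the tested probes. HER replicate 3 held 130 spots marked as outliers against 6 to 37 on the other arrays. Red local backgrounds above 500 numbered 38 on HER replicate 3 and 11 on HER replicate 2. They numbered 15 on LIM replicate 1, 5 on LIM replicate 4, and 0 on the remaining arrays. Markers of muscle cells were measured in every culture. A gene was called at a difference of at least 1.3-fold and a limma adjusted p no higher than 0.05. Of 7 muscle cell markers tested, 5 were called higher in LIM and 5 in HER (*MYF5*, *MYOG*, *MYF6*, *DES*, and *CDH15*). *MYOD1* and *NCAM1* were called in neither, and *NCAM1* was -3.18 on LIM replicate 4. Of 9 fibroblast markers, 5 were called higher and 1 lower in LIM, and 5 higher and 2 lower in HER. Among all tested probes, 16% were called higher and 18.3% lower in LIM, and 10.4% and 14% in HER. In such bulk samples, fewer cells of a type and less RNA per cell cannot be told apart.

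The muscle chain *ITGA7* was the member with the clearest difference, and it was higher in the beef breed on 8 of 8 arrays. Its log2 ratio was 1.99, 1.75, 1.76, and 1.03 on LIM replicates 1 to 4 and 1.89, 1.73, 1.45, and 0.53 on HER replicates 1 to 4. The lowest value of each comparison was on replicate 4, and the ranges of both comparisons overlapped. Its scanner signal, which is not scaled between arrays, was 25700 to 49800 in LIM against 7560 to 24300 in HF on the same arrays, without overlap. In HER, it was 13400 to 39900 against 4900 to 15700 in HF, and these ranges overlapped.

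The mean ratio of *ITGA7* was 1.63 ± 0.41 (SD, n = 4) in LIM, a 3.1-fold difference with a limma adjusted p = 0.00165. In HER, it was 1.40 ± 0.61 (SD, n = 4), a 2.64-fold difference with a limma adjusted p = 0.00679. The beef effect was 1.52 with a standard error of 0.17, or 2.86-fold (limma adjusted p = 0.000335). LIM exceeded HER by 0.23, with a 95% interval of -0.53 to 1.00 and a limma adjusted p = 0.803, so that neither breed was shown to be higher. The call held in LIM, in HER, and in the beef effect when any 1 of the 8 arrays was left out. In HER, however, it was lost with normexp correction of the local backgrounds as measured, where the ratio was 1.19 and the limma adjusted p = 0.165. Under that setting, 0 of all tested probes were called in HER. With outlying local backgrounds replaced before normexp, the *ITGA7* ratio in HER was 1.44 (limma adjusted p = 0.00782) and the call held, and 2979 of all tested probes were called. With the methods' t-test after Benjamini-Hochberg adjustment, in place of limma, the adjusted p was 0.0544 in LIM and 0.102 in HER. The muscle cell markers, summed over 8 probes, gave a signal of 17000 to 72700 in LIM and 16800 to 67900 in HER. In HF, it was 8520 to 36400 and 6950 to 24500. The median log2 ratio of the tested muscle markers was lowest on replicate 2 in LIM (1.35) and on replicate 4 in HER (1.00). For the fibroblast markers, the median was lowest on replicate 4 of both comparisons, as was *ITGA7*, at 0.42 in LIM and 0.52 in HER. The part of either cell type in the *ITGA7* result was not tested.

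**Figure D1:**
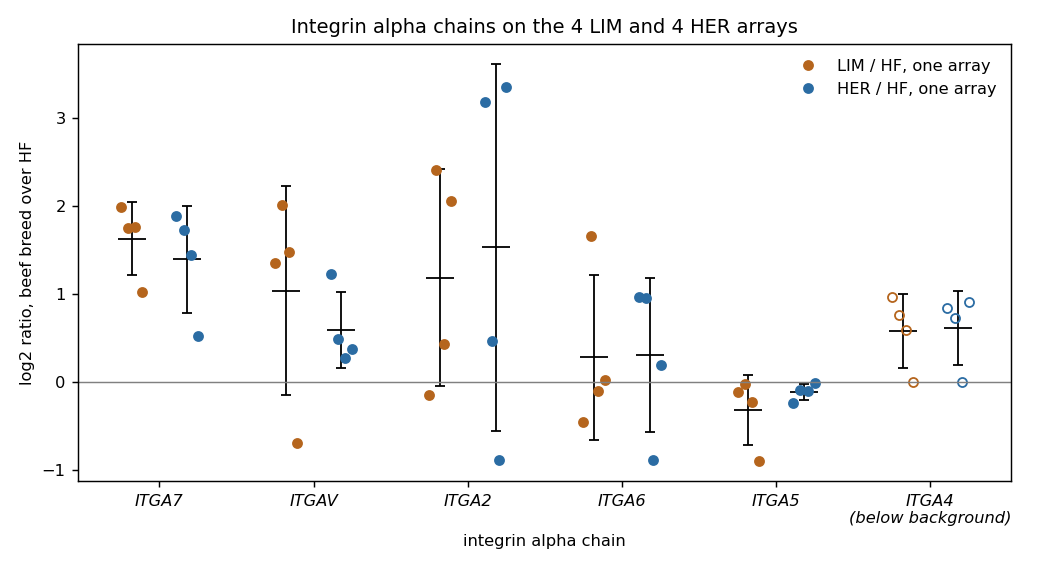
Log2 ratio of the beef breed over HF (vertical axis) for the 6 integrin alpha chains with a probe. Each point is 1 array, and black marks give the mean ± SD of 4 arrays. The *ITGA7* points lie between 0.53 and 1.99, all above 0, those of *ITGA2* range from -0.88 to 3.36, and open points mark *ITGA4*, which was not well above background.

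The chain of *ITGAV*, which binds vitronectin, fibronectin, and osteopontin, was higher on 7 of 8 arrays. It reached 1.36, 2.01, 1.48, and -0.69 on LIM replicates 1 to 4 and 1.23, 0.49, 0.28, and 0.38 on HER replicates 1 to 4. A single array, LIM replicate 4, lay on the opposite side of 0 from the rest. The mean was 1.04 ± 1.19 (SD, n = 4; limma adjusted p = 0.0663) in LIM and 0.59 ± 0.43 (SD, n = 4; limma adjusted p = 0.282) in HER, and neither passed the threshold. The beef effect was 0.82, or 1.76-fold, and was called with a limma adjusted p = 0.0376. Without LIM replicate 4, the LIM mean was 1.62 (limma adjusted p = 0.00209) and the beef effect 1.10 (limma adjusted p = 0.000808). Leaving out any other array ended the call of the beef effect, with values of 0.65 to 0.87. The median log2 ratio of the fibroblast markers was 0.42 on LIM replicate 4 and 0.52 on HER replicate 4, against 1.23 to 2.00 on the other arrays. It was highest on HER replicate 3, where *ITGAV* had its lowest HER value, and the part of such cells in the *ITGAV* result was not tested.

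The collagen receptor chain *ITGA2* varied most. Its log2 ratio was -0.14, 2.41, 0.43, and 2.06 on LIM replicates 1 to 4 and 3.19, 0.47, -0.88, and 3.36 on HER replicates 1 to 4, so that each comparison held values on both sides of 0. The mean was 1.19 ± 1.24 (SD, n = 4; limma adjusted p = 0.231) in LIM and 1.53 ± 2.08 (SD, n = 4; limma adjusted p = 0.15) in HER. The beef effect of 1.36 did not pass the threshold (limma adjusted p = 0.0572). The probe was dim, with a signal of 27.2 to 161 in LIM and 7.04 to 103 in HER. HF was not well above background on any HER array and HER on only 2 of 4, so that the HER ratio has no exact value. The size of both ratios depended on the background step. With loess normalization in place of the scanner ratios, the HER mean was 0.29, 0.31, and 0.40 in 3 versions of that step. The LIM mean was then 0.31, 0.40, and 0.53. With an array left out, the HER mean ran from 0.93 to 2.34.

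The laminin receptor chain *ITGA6* was 0.97, 0.96, -0.88, and 0.20 on HER replicates 1 to 4 and -0.45, 1.66, -0.10, and 0.02 on LIM replicates 1 to 4. Its means of 0.28 ± 0.94 (SD, n = 4; limma adjusted p = 0.599) in LIM and 0.32 ± 0.87 (SD, n = 4; limma adjusted p = 0.577) in HER were smaller than the spread between arrays. The values of *ITGA2* and *ITGA6* were both lowest on HER replicate 3 and LIM replicate 1, where the median log2 ratio of 4 endothelial markers (*KDR*, *TEK*, *TIE1*, and *ESAM*) was -2.85 and -0.51. The same median was 3.57, 0.54, and 1.58 on HER replicates 1, 2, and 4 and 3.47, 1.08, and 3.46 on LIM replicates 2, 3, and 4. Summed over these markers, the signal was 419 to 8370 in LIM and 165 to 5940 in HER, against 502 to 1910 and 311 to 1120 in HF, and 0 of the 4 were called in either comparison. The part of endothelial cells in the values of *ITGA2* and *ITGA6* was not tested.

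**Figure D2:**
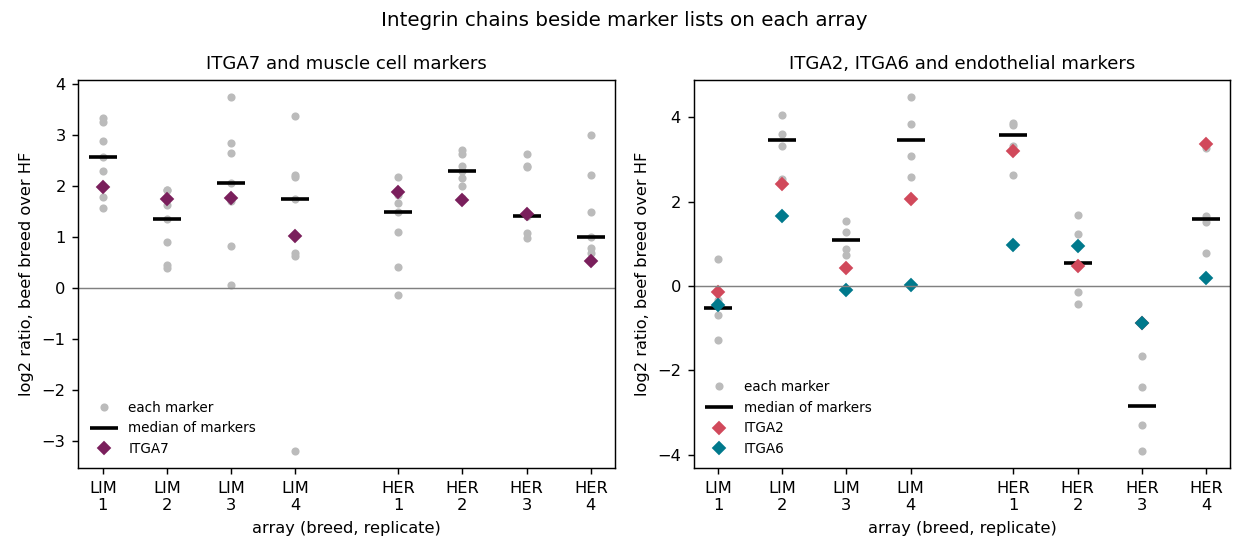
Log2 ratio of the beef breed over HF on each array (horizontal axis, breed and replicate). Grey points are single marker genes, black bars the median of the list, and diamonds the integrin chains. On the left, *ITGA7* lies above 0 on all 8 arrays, as does the median of the muscle cell markers (1.00 to 2.57). On the right, *ITGA2* and *ITGA6* are lowest on HER replicate 3, as is the median of the endothelial markers (-2.85).

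The fibronectin receptor chain *ITGA5* was the member that stood lower in the beef breeds on 8 of 8 arrays, at -0.11, -0.02, -0.22, and -0.90 on LIM replicates 1 to 4 and -0.24, -0.09, -0.10, and -0.01 on HER replicates 1 to 4. Apart from LIM replicate 4, the values lay within 0.24 of 0. The means of -0.31 ± 0.40 (SD, n = 4; limma adjusted p = 0.134) in LIM and -0.11 ± 0.09 (SD, n = 4; limma adjusted p = 0.62) in HER did not pass the threshold. The 95% interval of the beef effect ran from -0.45 to 0.03. The leukocyte chain *ITGA4* was not well above background in any of the 16 channels, with signals of 3.19 to 16.3, and was not tested.

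Of the 5 members tested, 1 was called in LIM and 1 in HER, in both cases *ITGA7*, where a call needed a 1.3-fold difference in either direction and a limma adjusted p no higher than 0.05. Among all 17631 probes tested, 34.3% were called in LIM and 24.4% in HER. With an unadjusted limma p in LIM, *ITGAV* joined *ITGA7*, against 41.6% of all probes. In the beef effect, 2 of 5 members were called (*ITGA7* and *ITGAV*), against 38.1% of all probes, a share near that background. Between LIM and HER, 0 of 5 differed by limma, against 0.233% of all probes, and with an unadjusted p it was also 0 of 5, against 14.1%. The median log2 ratio of the tested members was 1.04 in LIM and 0.59 in HER, beside -0.01 and -0.06 over all tested probes. These medians depended on the processing. With loess normalization, the middle value was that of the dim *ITGA2* probe, at 0.31 to 0.53 in LIM and 0.29 to 0.40 in HER.

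The muscle chain was set against chains here called fibroblast-type, which many other cells also carry. Which cells carried these chains in the cultures was not tested. On each array, the median log2 ratio of *ITGA2*, *ITGA5*, and *ITGAV* was subtracted from that of *ITGA7*. The difference was 2.10, -0.26, 1.33, and 1.72 on LIM replicates 1 to 4 and 0.67, 1.26, 1.55, and 0.15 on HER replicates 1 to 4. It was above 0 on 7 of 8 arrays and averaged 1.06 ± 0.81 (SD, n = 8), with LIM at 1.22 ± 1.04 (SD, n = 4) and HER at 0.91 ± 0.62 (SD, n = 4). Taken singly, *ITGA7* had the higher ratio than *ITGA5* on 8 of 8 arrays, than *ITGA6* on 8, than *ITGAV* on 7, and than *ITGA2* on 4. The member with the highest ratio was *ITGA2* on HER replicates 1 and 4 and LIM replicates 2 and 4 and *ITGA7* on the other 4 arrays, but on the HER arrays the *ITGA2* ratio rests on an HF signal that was not well above background. With loess normalization, the HER mean of *ITGA2* was 0.29 to 0.40 and that of *ITGA7* 1.19 to 1.44. The LIM mean of *ITGA2* was then 0.31 to 0.53 and that of *ITGA7* 1.63 to 1.64. These ratios were measured by different probes, so they compare breed differences and not levels of the chains.

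The genes whose log2 ratios followed *ITGA7* most closely over the 8 arrays, by the root mean square difference among 7204 probes with a symbol, were *RPN2* (0.14), *CD99L2* (0.22), *GABBR1* (0.25), *COPS9* (0.26), and *RRAGB* (0.28). The protein of *RPN2* is a subunit of the oligosaccharyltransferase that glycosylates new membrane proteins, and *CD99L2* encodes a surface adhesion protein. The order depended on the processing: in the 3 versions with loess, *RPN2* ranked 1 of 7204 each time and *COPS9* 2 to 5, whereas *CD99L2* ranked 2 to 102, *RRAGB* 39 to 164, and *GABBR1* 115 to 308. Those versions also changed the background step, and *CD99L2*, *RRAGB*, and *GABBR1* had dimmer probes than *RPN2* and *COPS9*. These values are a description of likeness over arrays that share dye and slide within a comparison.

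Of 17 further integrin chains, 7 had a probe and 5 were tested. In LIM, *ITGA2B*, the platelet fibrinogen receptor chain, was 0.67 (limma adjusted p = 0.0212), with 0.42, 0.82, 0.62, and 0.81 on replicates 1 to 4. In HER, it was 0.20 (limma adjusted p = 0.433), and the difference between the breeds was not called. The LIM call was lost without LIM replicate 2, 3, or 4, where the limma adjusted p reached 0.0776. Its beef effect of 0.43 was called (limma adjusted p = 0.0224), but not without HER replicate 1, HER replicate 4, or LIM replicate 2, nor in any of the 3 versions with loess, where it was 0.25 to 0.32. The partner chain of *ITGAV*, *ITGB8*, was 1.93, 1.20, 1.47, and -0.67 on LIM replicates 1 to 4 and 0.89, 2.90, 1.79, and 0.20 on HER replicates 1 to 4. As with *ITGAV*, LIM replicate 4 was the array on which it was lowest. Its beef effect of 1.21, or 2.32-fold, was called (limma adjusted p = 0.021), but neither breed alone was, at 0.99 in LIM and 1.44 in HER. That call was lost without LIM replicate 1, 2, or 3, where the limma adjusted p reached 0.056, and the beef effect was 0.42 (1.34-fold, limma adjusted p = 0.0559) with normexp on backgrounds as measured. The beef effects of *ITGA9*, *ITGB2*, and *ITGB4* were 0.52, 0.16, and 0.08 and were not called. The leukocyte chains *ITGAL* and *ITGAM* were not well above background in any channel.

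The ligands and partners of integrins were read from a list of 68 genes, 35 of them tested. In LIM, 14 were called higher and 2 lower, in HER 13 and 2, and in the beef effect 17 and 2, beside 16% of all probes called higher in LIM, 10.4% in HER, and 17.7% in the beef effect, and 18.3%, 14%, and 20.4% called lower. Of 20 matrix ligands listed, 7 had a probe and 6 were tested, no laminin among them. All 6 were called higher in the beef effect. *FN1*, the fibronectin that the *ITGA5* and *ITGAV* chains bind, was at 2.67 or 6.36-fold (limma adjusted p = 0.000307). *COL1A2*, a collagen chain, was at 2.55 or 5.86-fold (limma adjusted p = 0.0013). *THBS1* passed narrowly at 0.38 (limma adjusted p = 0.0418) and was called in neither breed alone, and *SPP1* was called in HER but not in LIM. The values of *FN1* were 3.41, 3.48, 2.47, and 1.58 on LIM replicates 1 to 4 and 3.71, 3.03, 1.82, and 1.86 on HER replicates 1 to 4, all above 0. Collagens are also on the fibroblast list, whose summed signal was 365000 to 789000 in LIM and 280000 to 546000 in HER, against 63900 to 228000 and 55500 to 155000 in HF. Without the collagens, which make up most of that sum, it was 41400 to 102000 in LIM and 27500 to 53900 in HER, against 17900 to 38200 and 11500 to 21300. The brightest markers left in that sum were *DCN* and *LUM*, and a second, dimmer *DCN* probe was lower on 8 of 8 arrays (beef effect -0.35, not called). Of the other fibroblast markers, *PDGFRA* and *TCF21* stood lower in the beef breeds on 8 of 8 arrays, with beef effects of -1.42 and -1.13. *TCF21* was called in HER (-1.69) but not in LIM (-0.57). *THY1* (0.92, higher on 7 of 8 arrays) and *FAP* (0.60, higher on 6) were called higher in the beef effect. Of the 9 fibroblast markers, 7 were called higher and 2 lower in that effect. The part of such cells was not tested. Of 9 membrane partners, 8 were called higher in the beef effect, among them the tetraspanins *CD82* (1.87), *CD151* (1.36), and *CD9* (1.03) and the muscle caveolin *CAV3* (1.37).

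**Figure D3:**
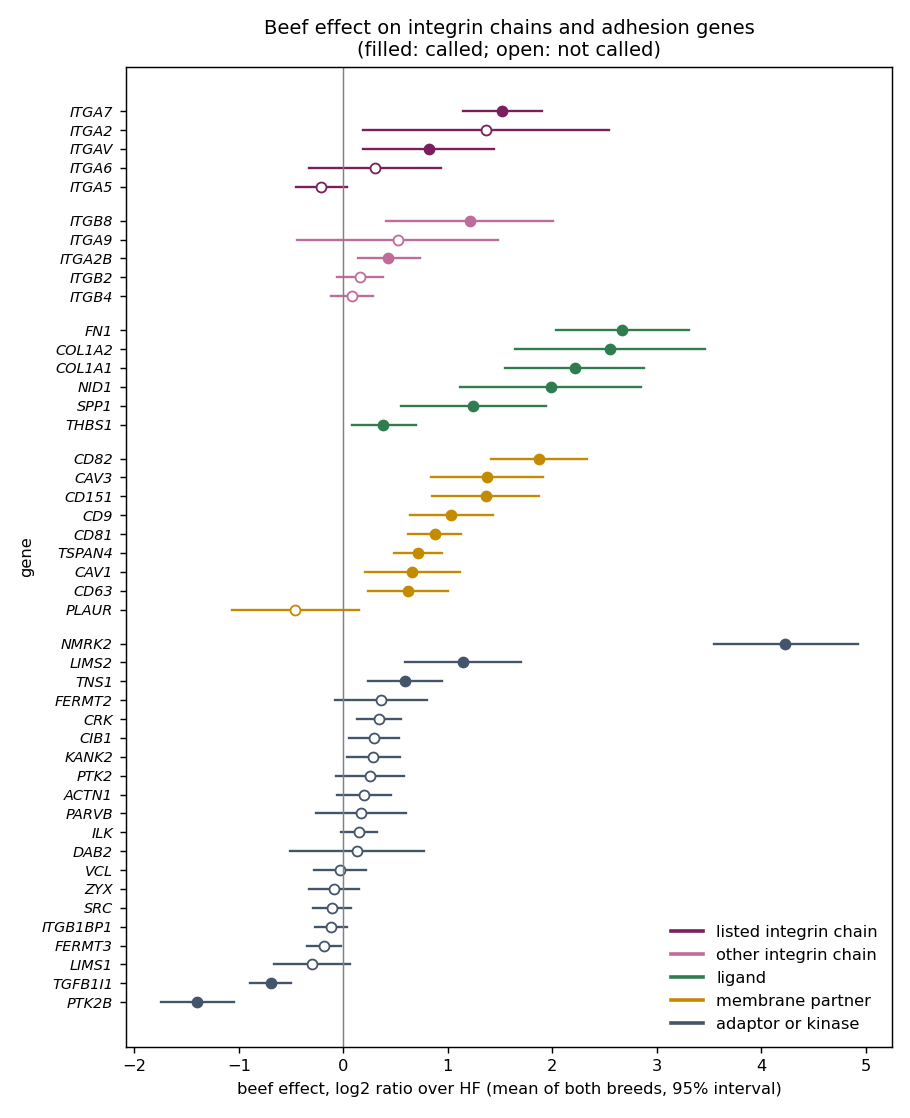
Beef effect on the log2 scale (horizontal axis, mean of both comparisons, with 95% interval) for the tested integrin chains and adhesion genes, grouped by role. Filled points were called and open points were not. The ligands and nearly all membrane partners lie to the right of 0, and *NMRK2* lies at 4.23.

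Of 20 tested adaptors and kinases that join integrins to the cytoskeleton, 3 were called higher and 2 lower in the beef effect, where 38.1% of all probes were called. The highest on the scanner ratios was *NMRK2*, a nicotinamide riboside kinase also known as the muscle integrin-binding protein, which was 2.60 to 5.39 on the LIM arrays and 3.37 to 4.48 on the HER arrays. Its beef effect was 4.23 (limma adjusted p = 0.000112), but HF was well above background on only 3 of 4 LIM arrays and 2 of 4 HER arrays, so that no exact fold is given. With loess and a changed background step, the beef effect was 1.58, 2.19, and 2.59 in the 3 versions and was called in each. The much brighter probe of *FN1* then stood at 2.55 to 2.68. The others called higher were *LIMS2*, which encodes an integrin-linked kinase partner, at 1.14, and *TNS1*, which encodes a tensin, at 0.59. The focal adhesion kinase relative *PTK2B* fell by 1.40 (limma adjusted p = 0.000336) and was lower on 8 of 8 arrays, from -2.04 to -0.74, but its beef effect was -0.68 to -1.06 with loess. The paxillin relative *TGFB1I1* fell by 0.69 (limma adjusted p = 0.000504), also lower on 8 of 8. The integrin-linked kinase *ILK* was 0.39 in HER (limma adjusted p = 0.0322) and -0.09 in LIM, the focal adhesion kinase *PTK2* had a beef effect of 0.25, and vinculin (*VCL*) one of -0.03, and these last 2 were not called. The *ILK* call in HER was lost without any of the 4 HER arrays or LIM replicate 3 (limma adjusted p up to 0.12) and held in 13 of 22 alternatives. No probe was matched for *TLN1*, *LAMA2*, or *ITGB1BP2*.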

How the data were processed

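The labels gave each array's breed, dyes, and replicate number. The authors deposited the Feature Extraction 10.7.3.1 output of each array, with spot intensity and local background per channel and the log10 of red (Cy5) over green (Cy3), a ratio the software had background-subtracted and dye-normalized. The deposited series table held the same log10 ratios (largest difference 0). The log10 ratio was turned into log2 beef breed over HF, the sign was reversed where the beef breed was Cy3, and control and outlying spots were left out. Spots of a probe were averaged (21465 probes spotted 2 times, 10 spotted 6 times). Probes were named through RefSeq accessions with a table on assembly ARS-UCD2.0, which is not the build of the array, so no coordinates or sequences are given.

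Probes that exceeded background clearly in 4 or more of the 16 channels were fitted together (limma 3.58.1, R 4.3.3, lmFit and eBayes) with a mean for each comparison and Benjamini-Hochberg adjustment over 17631 probes. The paper's fold threshold of 1.3 was kept, with an adjusted p of at most 0.05 in place of its unadjusted one. With several probes for a gene, the brightest was used, and those of *DCN*, a fibroblast marker, had opposite signs. The steps were tested on simulated data. Precision is limited by 4 arrays per comparison and by HF bulls that recurred between arrays, which the main fit did not model.

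The integrin chains, adhesion genes, and marker lists were chosen with earlier results of these data known. Genes named are all listed integrin chains, the 3 highest and 3 lowest called adhesion genes in the beef effect (only 2 were called lower), 7 adhesion genes chosen by role, and the 5 genes most like *ITGA7*; other members of a list are named as examples. Alternatives covered background correction, loess, centring, scaling, filters, thresholds, the methods' t-test, array weights, a replicate block, and fits without each array in turn. Normexp (offset 50) used median intensities. The likeness to *ITGA7* under loess and the fibroblast sum without collagens were added after seeing the data.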

Additional observations from a re-analysis of the deposited data

Results flagged for a closer look

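Among 46 groups of 4 arrays (23 named genes in each comparison), an array stood far from the other 3 in 2 cases by Dixon's criterion for 4 values, and chance alone is known to give such cases now and then. The *RPN2* log2 ratio was 0.89 on LIM replicate 4, against 1.78 to 1.80 on the other LIM arrays (gap over range 0.976). The *RRAGB* log2 ratio was 0.40 on HER replicate 4, against 1.37 to 1.46 on the other HER arrays (gap over range 0.921). Within its comparison, *ITGA7* was itself lowest on these arrays, at 1.03 and 0.53, without passing the criterion. Both genes are among the 5 chosen because their ratios lay closest to those of *ITGA7*. Sharing its low arrays therefore follows from that choice and is not a separate result.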

How the results depend on the processing

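Of 426 member values over 22 alternatives, 389 kept their direction and side of the threshold, 14 lost the call, 6 gained it, and 17 that were not called changed sign. No called value reversed. The count of members called in LIM (1) was 2 with array weights, 2 with an unadjusted limma p, 0 with the methods' t-test after Benjamini-Hochberg, and 1 to 2 with an array left out (2 without LIM replicate 4). In HER (1), it was 0 with normexp on backgrounds as measured, 0 with the methods' t-test after Benjamini-Hochberg, and 1 to 2 with an array left out (2 without LIM replicate 4). In the beef effect (2), it was 1 with normexp as measured, 1 with the replicate block, 1 with the methods' t-test after Benjamini-Hochberg, and 1 to 2 with an array left out (1 without each of HER replicates 1, 2, and 4 and LIM replicates 1, 2, and 3). Without HER replicate 3 it stayed 2, with *ITGA2* (1.77, limma adjusted p = 0.0164) in place of *ITGAV*, and without the filter on dim probes *ITGA4*, which was below background, took the place of *ITGAV*. The causes were not tested.

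For *ITGA7*, the LIM call was lost only with the methods' t-test after Benjamini-Hochberg (adjusted p = 0.0544) and the HER call there (0.102) and with normexp as measured (0.165), over adjusted p ranges of 0.000411 to 0.0544 and 0.00171 to 0.165. Its excess over the fibroblast-type chains stayed between 0.92 and 1.34. The replicate numbers were not taken to pair arrays (deviations of same-numbered arrays correlated at -0.24, 0.13, 0.30, and 0.54, and 2 of 4 LIM arrays matched their own number best), and the block moved *ITGAV* to a limma adjusted p = 0.056. Over all probes, HER calls numbered 4302, but 0 with normexp as measured and 2979 with normexp after outlying backgrounds were replaced. They numbered 2 with the methods' t-test after Benjamini-Hochberg and 1527 to 5439 with an array left out. In LIM, 6056 became 1002 with that t-test and 3796 to 7011 with an array left out. In the beef effect, 6723 became 3289 with normexp as measured. Between LIM and HER, 41 ranged from 0 to 224 with adjustment and were 2482 without. The share of HER calls that were higher was 42.6%, against 54.8% and 55.1% with loess. Dim probes such as *ITGA2* (beef effect 0.30 to 1.77) are limited by signal over background.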
